A study of Mus musculus with 24 samples.

Results

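The genes described here encode splicing factors and nuclear RNA-binding proteins. They were taken by symbol: a probe counted as a member when its annotation gave exactly 1 gene symbol and that symbol began with Srsf, Sfrs, Sf3a, Sf3b, Snrp, Hnrnp, Hnrp, Prpf or U2af, or with Lsm or Rbm followed by a digit. The rule found 141 of 15360 probes, 66 of 7680 in the first table of values and 75 of 7680 in the second. They stood for 84 of 6970 named genes, 48 in the first table, 58 in the second and 22 in both. Another 9 probes named such a gene beside a different one and were left out. The symbol rule also took in proteins that act outside splicing, such as Lsm14a and Lsm14b, which sit in cytoplasmic RNA granules.

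Pre-mRNA splicing is carried out by the spliceosome, which is built from small nuclear RNAs and their bound proteins and assembles anew on each intron. SR proteins bind exons and mostly favour use of the neighbouring splice sites, hnRNP proteins coat the nascent transcript and often oppose it, and the U2AF and SF3 proteins mark the 3′ splice site and the branch point. Many SR and hnRNP genes adjust their own mRNA through alternative splicing of poison exons.

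Mouse embryos were cultured at 37 °C, and 1 group received 40 µM 4-hydroperoxycyclophosphamide for 1 h while the control group received nothing. The drug, 4CP in the labels, is a form of the alkylating agent cyclophosphamide that needs no activation by the liver. Each of 24 two-channel arrays carried RNA of treated and of control embryos, 12 with the treated RNA in channel 1 and 12 with it in channel 2. Each table held 3 pairs of slides with exchanged channels and 2 array records per slide, which the titles tell apart by a letter B. The sources used here do not give strain, embryo stage, number of embryos pooled or dyes. The labels do not say that pair numbers mark separate cultures or litters, so every p-value reflects only how much slide pairs varied, possibly for technical reasons.

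Every value is a log ratio of treated and control RNA, relative to the median probe of its array and in a log base that is not stated. In base 2 a value of 0.1 would be a 1.07-fold change, and in base e it would be 1.11-fold. The effect of a slide pair was the difference between its slides divided by 2, which turns the swapped slide. With channel 1 as the numerator, a positive effect means more RNA after treatment, and with channel 2 it means less. The effect also assumes that swapped slides were deposited unturned. Ratios give no levels, so the tissue could not be checked against its markers and levels could not be compared between genes. Before centring, the median probe effect of the tables was -0.128 and -0.0543. As effects, the embryo tissue markers that were measured gave 0 probes past the threshold in either table. The 3 primitive erythroid genes of the second table had effects from -0.088 to -0.052 and the 4 yolk sac genes of the first from -0.059 to -0.020. The 2 neural tube genes of the first table had 0.020 and 0.054, its 2 trophoblast and decidua genes -0.043 and 0.174, and its 1 erythroid gene -0.012. The part of these cell types in the members' values was not tested.

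No splicing factor transcript passed an adjusted p of 0.05 with limma for a difference between treated and control embryos. The count was 0 of 66 member probes in the first table, where 0% of all probes passed, and 0 of 75 in the second, where 0% passed as well. The lowest adjusted p of a member was 0.997 and 0.823, respectively. An unadjusted p under 0.05 was found for 3 first-table member probes, or 4.55% against 2.34% of all probes. All 3 were positive, as were 1.84% of all probes, and 0 were negative, against 0.508%. For the second table the number was 8, or 10.7% against 5.22%, with 2 positive (background 1.18%) and 6 negative (4.04%). With a pair left out, 0 members passed, where 0.312%, 0.391% and 0.312% of first-table probes did without pair 1, 2 or 3, and 0.521%, 0.755% and 0% of second-table probes. Values without centring gave 0 members as well, against 0.43% and 0.013% of all probes. The effects were small. Their median absolute size over first-table member probes was 0.0354, the same as over all probes, and over second-table members it was 0.029 against 0.0234.

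Most members did not keep their sign over the 3 pairs. The sign was the same in all 3 for 15 of 66 first-table member probes, 22.7% against 22.6% of all probes. Of these, 10 were positive (11.4% of all probes were) and 5 negative (11.2%). It was the same for 25 of 75 second-table probes, 33.3% against 24.5%, with 11 positive (background 9.84%) and 14 negative (14.7%). At the level of genes, 34 of 48 members had a positive mean effect on the first platform (70.8%, against 51.0% of all genes) and 27 of 58 on the second (46.6%, against 46.0%). The median member gene of the first table stood at 0.0271, against 0.001 for all genes, and its pairs gave 0.059, 0.045 and -0.015. The pair medians over all genes of that table were 0.024, 0.008 and -0.010, also negative in pair 3. In the second table the median member gene stood at -0.00217, against -0.003.

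**Figure D1:**
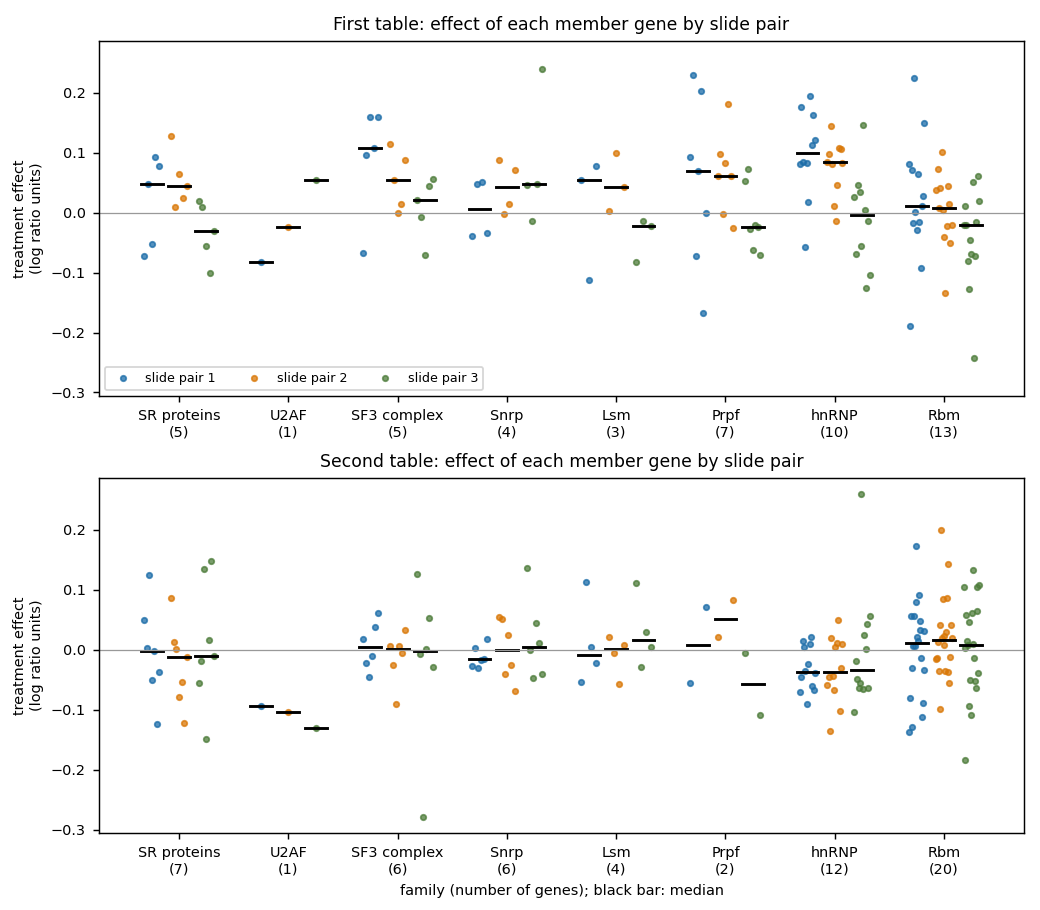
Treatment effect of each member gene (vertical axis, log ratio units, swapped slides turned) by family (horizontal axis, with the number of genes), 1 point per gene and slide pair, and black bars for the family median of each pair. In the upper panel (first table) the hnRNP points of pairs 1 and 2 lie mostly above 0 and those of pair 3 spread around it, while in the lower panel (second table) the 3 hnRNP medians lie between -0.037 and -0.035.

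The results below turn most on Srsf2, Sf3b3 and U2af1l4, and their promoters are printed for that reason. Srsf2 was the only member past the threshold when the slides were read without the turn, the effects of Sf3b3 had opposite signs on the platforms, and U2af1l4 had the lowest unadjusted p of all members. Each sequence covers 300 bases around the RefSeq transcription start in GRCm38.p6, most of them upstream. Capitals mark matches on either strand to 3 motifs: CCGGAAG (an ETS family motif), CCAAT and TATAAA.
Srsf2: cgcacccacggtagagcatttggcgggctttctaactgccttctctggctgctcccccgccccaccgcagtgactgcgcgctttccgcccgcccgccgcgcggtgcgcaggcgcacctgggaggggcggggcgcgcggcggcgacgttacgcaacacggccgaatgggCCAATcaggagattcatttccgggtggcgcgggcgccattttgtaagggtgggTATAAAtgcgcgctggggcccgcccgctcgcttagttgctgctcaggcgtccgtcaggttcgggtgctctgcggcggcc
Sf3b3: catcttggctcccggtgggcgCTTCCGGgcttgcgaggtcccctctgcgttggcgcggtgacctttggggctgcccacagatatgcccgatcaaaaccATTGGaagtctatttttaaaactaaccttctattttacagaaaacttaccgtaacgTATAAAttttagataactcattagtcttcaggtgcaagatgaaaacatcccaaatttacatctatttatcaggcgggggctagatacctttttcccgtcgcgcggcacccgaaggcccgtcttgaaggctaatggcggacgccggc
U2af1l4: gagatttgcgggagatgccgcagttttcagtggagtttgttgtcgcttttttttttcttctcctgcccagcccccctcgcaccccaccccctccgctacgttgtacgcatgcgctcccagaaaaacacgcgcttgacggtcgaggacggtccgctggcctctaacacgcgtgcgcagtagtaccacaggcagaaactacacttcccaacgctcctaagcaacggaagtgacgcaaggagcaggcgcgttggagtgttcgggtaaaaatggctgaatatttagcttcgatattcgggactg
They lie at chr11:116853045-116853344 on the minus strand, chr8:110846754-110847053 on the minus strand and chr7:30563090-30563389 on the plus strand. The Srsf2 window held 39 CpG dinucleotides with 1 CCAAT and 1 TATAAA match. The Sf3b3 window held 20 CpG and 1 match to each of the 3 motifs, and the U2af1l4 window held 25 CpG and no match.

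The promoters of the members were described as a feature that the symbol rule had not used. RefSeq promoters were found for 73 of 84 member genes, 91 promoters in all. Their median GC content was 60.0%, against 52.7% over 32851 mouse promoters, and their median CpG count was 24 against 7. CCGGAAG occurred in 29.7% of member promoters and in 8.86% of all, so most member promoters lacked it. Families ranged from 6 of 7 SF3 promoters to 15.4% of Rbm, 0 of 8 Lsm and 0 of 1 U2AF promoters. CCAAT occurred in 47.3% against 37.4%, from 65.0% of hnRNP promoters to 33.3% of SR and 28.6% of Snrp promoters, with 0 of 1 for U2AF. TATAAA occurred in 9.89% against 13.6%. No motif contains another, and a match is a string of letters, not a site shown to be bound.

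SR protein genes had mostly positive effects on the first platform and mostly negative ones on the second, without a call in either. Positive means were found for 4 of 5 genes on the former (median 0.022, and -0.004 without pair 2), and negative means for 5 of 7 on the latter (median -0.013). The background for this and each later family was 51.0% positive means on the first platform and 46.0% on the second. Srsf3, the smallest SR protein, had the largest mean effect of the family in the first table, with 0.078, 0.045 and -0.031 in pairs 1, 2 and 3 (mean 0.031 ± 0.056, SD, n = 3). The third pair went against the others. Srsf2, also known as SC35 and a marker of nuclear speckles, had -0.050, -0.079 and -0.150 in the second table (mean -0.093 ± 0.051, SD, n = 3). All pairs were negative there, but limma gave an unadjusted p of 0.0192 and an adjusted p of 0.9395. On the other platform its probes had means of 0.006 and 0.005, each with pairs of both signs.

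Srsf11, a speckle protein that contacts U2AF, had a positive gene mean in all 6 pairs of both tables. It was the only one of the 22 members in both tables with 1 sign in all 6, which 37 of all 943 such genes had. For Srsf11 the second table gave 0.126, 0.001 and 0.135 (mean 0.087 ± 0.075, SD, n = 3), with an adjusted p of 0.9395 in limma. In the first table the gene mean was 0.022, but it averaged 2 probes of opposite sign. One probe had 0.240, 0.109 and -0.110, and the other -0.144, -0.091 and 0.128. The shared sign of Srsf11 therefore rests on an average of probes that did not share one. Srsf6, an SR protein that acts on alternative exons, had 2 second-table probes of opposite sign, one at -0.097, -0.028 and -0.026 and the other at 0.023, 0.003 and 0.005. Srsf1, the founding SR protein, had 0.049, 0.086 and -0.056 there, and Srsf5 had -0.125, -0.123 and 0.148, with both signs in each case.

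U2AF was represented by U2af1l4 alone, a relative of the small U2AF subunit that reads the AG at the 3′ splice site. Its effects in the second table were -0.093, -0.104 and -0.131 (mean -0.109 ± 0.019, SD, n = 3). The pairs lay close together, and limma gave an unadjusted p of 0.00524 and an adjusted p of 0.823. The records of each slide did not share that value. Records without the letter B gave -0.126, -0.251 and -0.250 in pairs 1, 2 and 3, and records with it gave -0.061, 0.044 and -0.011. The mean was therefore -0.209 in one set and -0.010 in the other, so the effect came mostly from the records without the letter. In the first table the gene had -0.082, -0.024 and 0.055 (mean -0.017 ± 0.068, SD, n = 3), with both signs.

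The SF3 complex, which binds the branch point as part of the U2 particle, had positive means for 5 of 5 first-table genes (median 0.048) and for 3 of 6 second-table genes. Sf3b3, a scaffold subunit of SF3B, had the largest effect of the family in both tables, and the signs were opposite. The first table gave 0.160, 0.089 and 0.056 (mean 0.101 ± 0.053, SD, n = 3, unadjusted p = 0.0685 in limma). The second gave -0.045, -0.090 and -0.280 (mean -0.138 ± 0.124, SD, n = 3, unadjusted p = 0.0142 and adjusted p = 0.9395 in limma). The difference between tables was not tested. The probes also differed in the component that is not turned, which was -0.315 for the first and 0.353 for the second. In the second table the pair 3 value came from one record set: -0.565 in records without the letter B and 0.006 in records with it. The mean was -0.240 in the former and -0.037 in the latter.

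Sf3b2, which contacts the pre-mRNA beside the branch point, had 0.108, 0.015 and 0.045 in the first table (mean 0.056 ± 0.048, SD, n = 3). In the second its probes averaged -0.023, -0.025 and -0.007 (mean -0.018 ± 0.010, SD, n = 3). One of these probes had -0.031, 0.021 and 0.009, and the other was negative in every pair. The gene means thus kept 1 sign over the pairs of each table, with opposite signs. Sf3b1, the largest SF3B subunit and the part that clamps the branch point helix, was positive in all pairs of the second table at 0.018, 0.006 and 0.126, while the first gave 0.160, -0.001 and -0.070. Sf3a3, a subunit of the partner complex SF3A, had 0.096, 0.054 and -0.007 in the first table.

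Snrp genes encode the Sm ring and other proteins of the small nuclear particles. Gene means were positive for 4 of 4 on the first platform (median 0.035) and for 3 of 6 on the second (median 0.004, and -0.000577 and -0.0082 without pair 2 and pair 3). Snrpf, an Sm ring subunit, had -0.035, 0.072 and 0.240 in the first table (mean 0.093 ± 0.139, SD, n = 3). Snrpb, the Sm subunit B, had -0.027, 0.055 and 0.137 in the second (mean 0.055 ± 0.082, SD, n = 3). Both had their highest value in pair 3 and a negative value in pair 1. For Snrpb the records without the letter B gave a mean of 0.105 and those with it 0.005. Snrpe, another Sm subunit, was positive in every pair of the first table at 0.051, 0.015 and 0.048, and Snrpd1 was negative in every pair of the second at -0.030, -0.041 and -0.048.

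Among Lsm genes, whose ring proteins bind U6 RNA or act in mRNA decay, 1 of 3 had a positive mean on the first platform and 2 of 4 on the second. Lsm7, a subunit of the nuclear and the cytoplasmic ring, had 0.077, 0.043 and -0.022 (mean 0.033 ± 0.050, SD, n = 3) in the first table. Lsm10, which belongs to the U7 particle that processes histone mRNA, had -0.054, 0.021 and 0.112 (mean 0.027 ± 0.083, SD, n = 3) in the second. Neither kept its sign over the pairs.

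The Prpf genes act in the U4/U6.U5 particle and in activation of the spliceosome. Positive means were found for 4 of 7 on the first platform (median 0.030) and for 1 of 2 on the second. Prpf3, a U4/U6 protein, had the largest mean effect of any member gene in the first table, with 0.230, 0.098 and 0.073 (mean 0.134 ± 0.084, SD, n = 3). All 3 pairs were positive, and limma gave an unadjusted p of 0.0316 and an adjusted p of 0.997. Prpf19, a ubiquitin ligase of the spliceosome, had 0.092, 0.062 and 0.053 (mean 0.069 ± 0.021, SD, n = 3). Its records without the letter B gave 0.180, 0.025 and 0.032, and those with it 0.005, 0.098 and 0.074. Prpf8, the scaffold of the catalytic core, and Prpf31, which binds the U4 particle, were negative in every pair of that table, barely so in one pair each, with means of -0.032 and -0.034. Prpf38b, a relative of a tri-particle protein, had a probe with 0.351, 0.201 and -0.005, the largest single-probe effect at 0.182 and the lowest p of the table's members, with no shared sign. Prpf4b, a nuclear kinase that phosphorylates spliceosome proteins, had 0.071, 0.083 and -0.110 in the second table (mean 0.015 ± 0.108, SD, n = 3).

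The hnRNP genes had positive means throughout on the first platform and mostly negative ones on the second, and none passed the test. Positive first-table means were found for 10 of 10 genes (51.0% of all genes had one), and the family median was 0.057. The pair medians were 0.099, 0.084 and -0.005, so pair 3 did not share the sign. Over all genes of the table they were 0.024, 0.008 and -0.010. On the second platform 8 of 12 hnRNP genes had negative means, as did 2202 of all 4075 genes. The family median there was -0.033, from -0.037, -0.037 and -0.035 in the pairs. Genes with 1 sign in every pair were 3 of 10 on the first platform, all positive (13.4% of all genes were positive in every pair). On the second they were 2 positive and 4 negative of 12, where 9.72% and 16.2% of all genes were. In values without centring the family medians were -0.067 and -0.0854, or 0.0615 and -0.0311 relative to the median probe, and without the turn of the swapped slides they were -0.403 and -0.494.

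Hnrnpa3, a core particle protein, had a probe with 0.047, 0.146 and 0.154 in the first table (mean 0.116 ± 0.060, SD, n = 3, unadjusted p = 0.0450 and adjusted p = 0.997 in limma). Its other probe had 0.123, 0.143 and -0.064, and in the second table the gene mean was -0.013. Hnrnpf, which binds G tracts, had 0.195, 0.047 and 0.005 (mean 0.082 ± 0.10, SD, n = 3), mostly from pair 1. Its pair 1 value was 0.334 in records without the letter B and 0.057 in records with it. Hnrnpc, a tetramer that measures RNA length and masks uridine tracts, was measured by 3 probes in the first table. One had 0.098, 0.084 and 0.029 and another 0.015, 0.032 and 0.103, whereas the remaining probe had -0.285, 0.130 and -0.026. Its probes thus disagreed in pair 1.

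Hnrnpa1, a splicing repressor that also shuttles mRNA to the cytoplasm, had 0.080, 0.085 and 0.026 in the first table (mean 0.064 ± 0.033, SD, n = 3). Its second-table probes averaged -0.046, -0.046 and -0.020 (mean -0.037 ± 0.015, SD, n = 3), though one of these probes had 0.009 in pair 3. All pair means were positive in one table and negative in the other, as for Sf3b3 and Sf3b2. Hnrnpa0, a related protein that binds AU-rich elements, had -0.071, -0.058 and -0.104 in the second table (mean -0.078 ± 0.024, SD, n = 3, unadjusted p = 0.0293 and adjusted p = 0.9395 in limma). Hnrnpu, which ties RNA to chromatin, had a probe there with -0.055, -0.072 and -0.098 (mean -0.075 ± 0.022, SD, n = 3, unadjusted p = 0.0329 in limma). Both of these probes stayed negative in each record set, while the other Hnrnpu probe had -0.080, 0.011 and -0.029. Hnrnpab was negative in every pair at -0.036, -0.043 and -0.056, and Hnrnpl was positive in every pair with a mean of 0.024. The gene mean of Hnrnpk was 0.015 and positive in every pair, but of its 3 probes 1 was positive throughout and the others had pairs of both signs. In the first table Hnrnpu had 0.121, 0.083 and -0.104.

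Rbm genes, a loose group named for an RNA recognition motif, had positive means for 6 of 13 first-table genes (median -0.006, and 0.003 without pair 3) and for 12 of 20 second-table genes (median 0.020). Rbm3, induced by mild cold in mammalian cells, had -0.016, -0.023 and -0.243 in the first table (mean -0.094 ± 0.129, SD, n = 3). The mean came largely from pair 3. In pair 1 the Rbm3 records differed in sign, with 0.081 without the letter B and -0.112 with it. Rbm27 had a probe with -0.024, -0.104 and -0.116 (mean -0.081 ± 0.050, SD, n = 3), and its other probe averaged -0.011. Rbm25, a splicing regulator of apoptosis genes, had 0.056, 0.200 and 0.046 in the second table (mean 0.1005 ± 0.086, SD, n = 3, unadjusted p = 0.0266 and adjusted p = 0.9395 in limma). Its 3 first-table probes each had 2 positive pairs and a negative pair 3, from -0.150 to -0.110. Rbm12b1 had -0.081, -0.013 and -0.184 in the second table (mean -0.093 ± 0.086, SD, n = 3). Rbm38, a p53 target that binds mRNA, had 0.080, 0.085 and -0.050, and Rbm8a, the exon junction protein Y14, had -0.034, 0.020 and 0.109, with both signs in each.

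The platforms shared the sign of a member's mean effect in 11 of the 22 genes measured on both, or 50%, against 511 of all 943 such genes (54.2%). Signs were positive on both for 7 and negative on both for 4, and 10 of the other 11 were positive in the first table and negative in the second. Across these 22 genes Pearson's r between the effects of the tables was -0.112, against 0.125 across the 943, a description across genes that share slides. Hnrnpa1, Sf3b2 and Sf3b3 had 1 sign in all pairs of the first table and the other in all pairs of the second, which 15 of the 943 genes (1.59%) did.

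**Figure D2:**
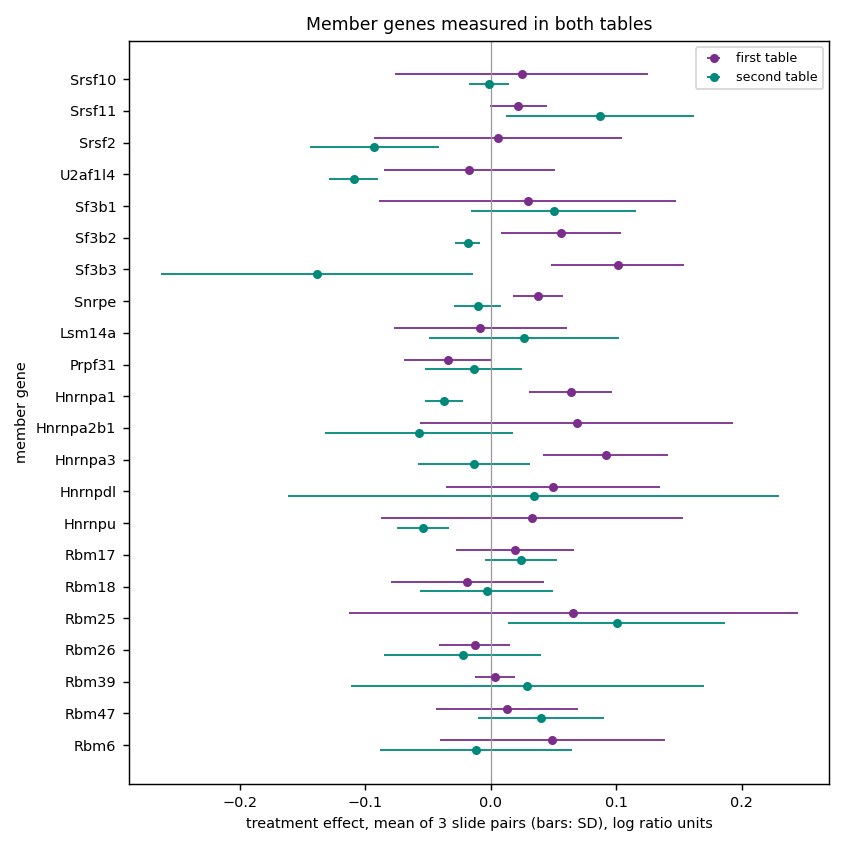
Mean treatment effect (horizontal axis, log ratio units, bars for SD over 3 slide pairs) of the 22 member genes measured in both tables, first table in purple and second in green. Sf3b3 lies at 0.101 and -0.138 (first table, then second), and Hnrnpa1 at 0.064 and -0.037, whereas the Srsf11 and Rbm25 points lie above 0 in both.

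Repeat probes of a gene were a check within a table. On the first platform 13 genes had several probes, 31 in all, and the probes of 8 genes shared a sign of the mean effect. On the second this held for 7 of 14 genes with 31 probes. The same share over all genes with several probes is not given here, so these counts show nothing particular to the members. Rbm34, a nucleolar protein, had -0.207, 0.075 and -0.043 on one first-table probe and 0.022, 0.014 and -0.103 on the other. Which part of a transcript each probe covers, and whether it also binds related genes, was not tested. The records with and without the letter B gave mean effects of the same sign for 77.3% of first-table and 64.0% of second-table member probes, against 69.0% and 55.1% of all probes.

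**Figure D3:**
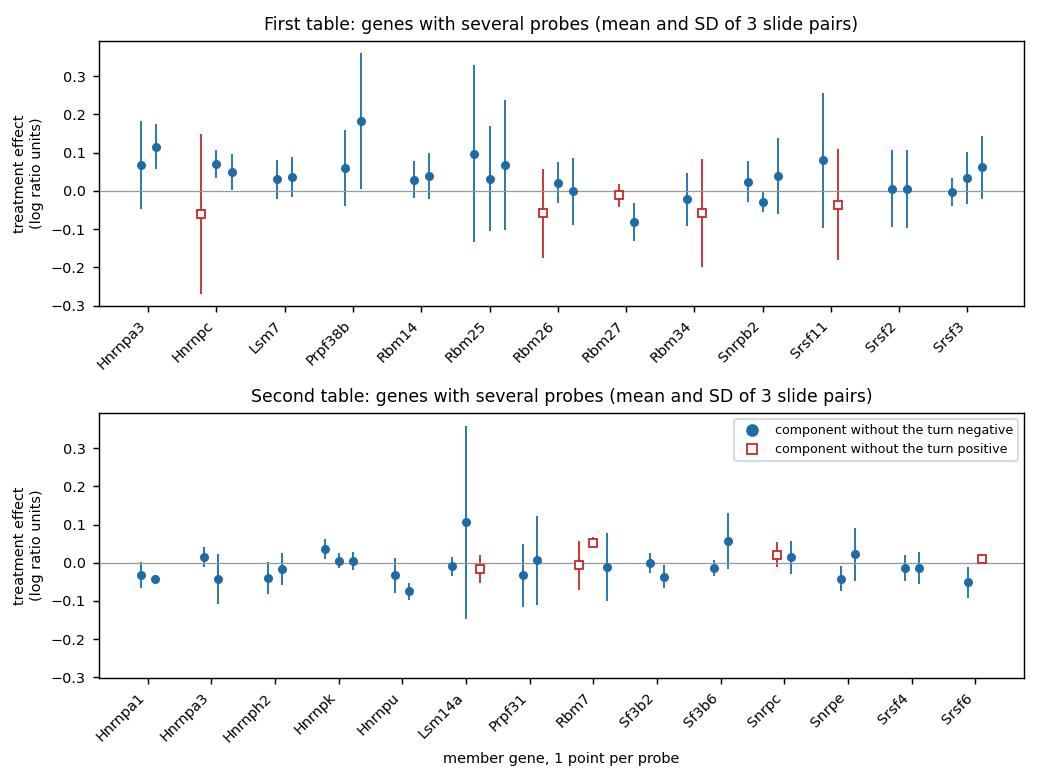
Mean treatment effect (vertical axis, log ratio units, bars for SD over 3 slide pairs) of each probe of the member genes with several probes, first table above and second below, with open red squares for probes whose component without the turn was positive. The first-table red squares, of Hnrnpc, Rbm26, Rbm27, Rbm34 and Srsf11, lie below 0.

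Whether the swapped slides had been turned before deposit is not known, so the slides were also averaged without the turn. Under that reading 2 of 66 member probes passed in the first table, or 3.03% against 2.85% of all probes, and 0 of 75 in the second, where 0% passed. Both were Srsf2 probes. One had -0.500, -0.351 and -1.910 (mean -0.920 ± 0.86, SD, n = 3, adjusted p = 0.0350 in limma), and the other -0.542, -0.327 and -1.847 (mean -0.905 ± 0.82, SD, n = 3, adjusted p = 0.0356 in limma). Pair 3 was several times the others. The single slides of the former ran from -2.020 to -0.302, all negative before the turn. The second-table probe had a mean of -0.783 and did not pass (adjusted p = 0.230 in limma).

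The component was negative for 56 of 66 member probes in the first table, against 3669 of all 7680 probes, and for 61 of 75 in the second, against 4335 of all 7680. The median member gene had -0.281 and -0.284, against -0.039 and -0.049 for all genes. Splicing genes outside the member rule were low as well, with 37 of 44 negative (median -0.286) and 40 of 43 (median -0.200). At an unadjusted p under 0.05 there were 21 of 66 (31.8%, background 18.5%) and 22 of 75 (29.3%, background 16.3%). The 2 tables were more alike here than in the turned effect: r was 0.595 over the 22 shared genes and 0.499 over 943. Slides with the treated RNA in channel 1 alone gave the 2 Srsf2 probes, 3.03% against 2.27% of all first-table probes. Slides with it in channel 2 alone, turned in sign, gave 11 of 66, 16.7% against 8.7%, and all 11 values were positive. These belonged to Srsf2, Srsf3, Hnrnpa2b1, Hnrnpd, Hnrnpf, Hnrnpu, Rbm25, Sf3b1 and Prpf38b. The 2 readings had opposite signs for the Srsf2 probes: -0.9145 and -0.9 from channel 1 alone, and 0.9258 and 0.9107 from channel 2 alone. A component shared by both orientations stands for the treatment if the slides were turned before deposit and for the probe's response to the dyes if they were not, and these cannot be told apart.

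The turned effect moved with this component in pair 1 of the first table. There r between them was -0.581 over 66 member probes and -0.456 over all. In pair 2 of that table it was 0.0218 over the members and 0.374 over all probes. In pair 3 it was 0.238 and 0.154. Both pairs thus had the opposite sign to pair 1. The 56 member probes with a negative component had a pair 1 median effect of 0.079, with 45 positive. The 10 with a positive component had -0.156, with 1 positive. Over all probes the medians were 0.071 (2841 of 3669 positive) and -0.028 (1657 of 4011 positive). In pair 2 the medians of the 2 member sets were 0.052 and 0.060, and in pair 3 -0.022 and -0.023. Over all probes they were 0.019 and -0.016 in pair 2, and -0.023 and -0.009 in pair 3. The part of this component in the effects of the families was not tested. With a trend against the component removed from each pair, the hnRNP medians were 0.0353 and -0.0243, and the medians over all member genes were 0.00958 and 0.00572.

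**Figure D4:**
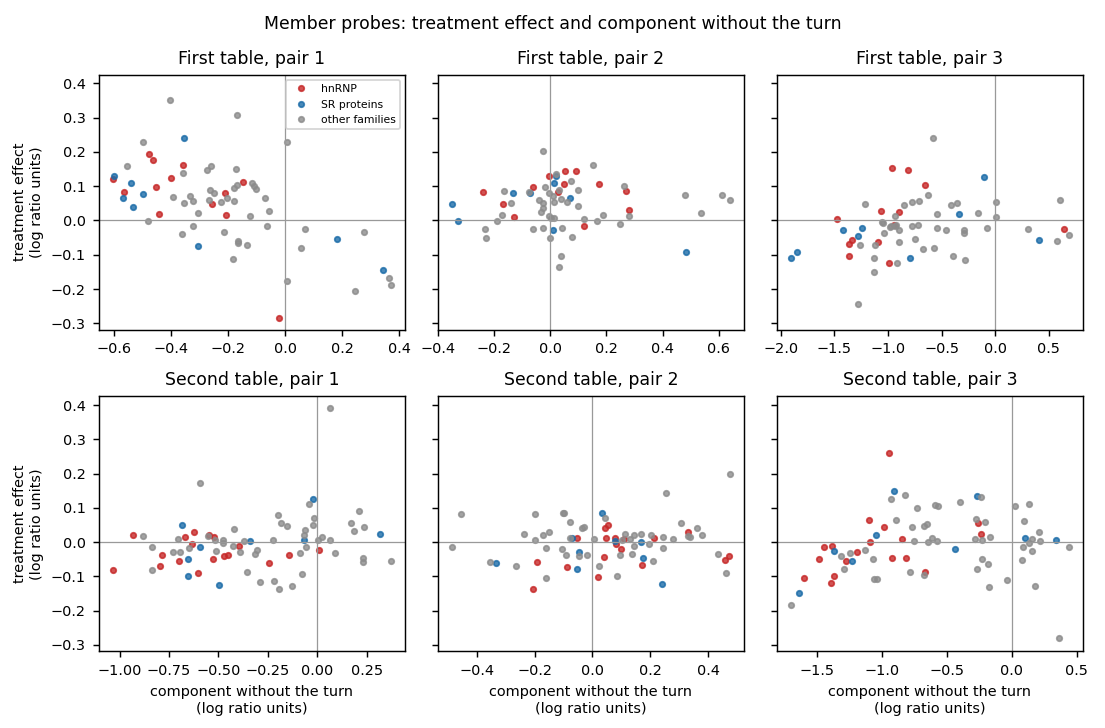
Treatment effect (vertical axis) against the component without the turn (horizontal axis) for each member probe, both in log ratio units, by table and slide pair, with hnRNP probes in red, SR proteins in blue and other families in grey. In pair 1 of the first table the points slope downward from left to right (r = -0.581), and in the other panels r runs from 0.0218 to 0.238.

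Splicing genes outside the member rule, a list of kinases, regulators, spliceosome subunits and assembly factors, had 0 probes past the threshold in either table. Positive means were found for 29 of 44 on the first platform (65.9%, against 51.0% of all genes, median 0.022) and for 15 of 43 on the second (34.9%, against 46.0%, median -0.011). An unadjusted p under 0.05 was reached by 2 of 64 first-table probes, both positive, where 2.34% of all probes reached it and 1.84% were positive. Of 52 second-table probes, 1 reached it as positive (background 1.18%) and 4 as negative (4.04%). Clk1, a kinase that phosphorylates SR proteins, had 0.591, 0.162 and -0.037 in the first table (mean 0.239, the largest of the list). Ncbp2, the cap-binding partner, had a mean of 0.110, and Ddx17, an RNA helicase, had 0.097. In the second table Gemin4 stood at -0.099 and the helicase Ddx5 at -0.081. All 6 particle assembly genes measured there had negative means, with a median of -0.044, and 2202 of all 4075 genes had negative means. On the first platform 3 of 5 assembly genes had positive means, with a median of 0.0150. The SR protein kinases went the other way on the second platform, with positive means for 4 of 4 and a median of 0.0155. Yet 0 of these 4 were positive in all 3 pairs. On the first platform 1 of 3 kinases had a positive mean, with a median of -0.0152. These parts of the list were picked out after their values were seen.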

How the data were processed

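Log ratios of 24 two-channel arrays in 2 tables of 7680 probes were used. The deposited values were treated as a score, a log ratio for which the sources used here give no base, numerator channel or normalization. No probe was filtered and no value was missing. The design had assumed log2 values, and the log base does not alter p-values from limma.

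Each array was centred on its median, the 2 records of a slide were averaged, and the effect of a slide pair was the difference of its slides divided by 2. Effects of 3 pairs per table were tested against 0 with limma 3.58.1 in R 4.3.3, with Benjamini-Hochberg adjustment over 7680 probes and a threshold of 0.05. The scripts were tested on simulated data. Spot intensities were not given, so signal over background is unknown, and the number of arrays limits the precision.

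Symbols came from the platform annotation, and all 141 identifiers were found in the RefSeq table. Genes named were, per table, the 8 with the lowest p among those with 1 sign in all pairs, the largest mean effect of each family, and genes with 1 sign in all pairs of both tables. Other genes were added after their values were seen. Members and lists were chosen with earlier results of these data known. Alternatives covered centring, scaling, quantile normalization, pairs left out, channels, records, a replicate block, runs of 240 probes, a dye trend, averaged probes and updated symbols.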

Additional observations from a re-analysis of the deposited data

Results flagged for a closer look

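3 member genes had gene mean effects of one sign in every slide pair of the first table and of the other sign in every pair of the second. Hnrnpa1 had mean effects of 0.0637 and -0.0372, Sf3b2 of 0.0561 and -0.0182, and Sf3b3 of 0.101 and -0.138, first table then second. The difference between tables was not tested for any of them. None of the probes passed the threshold in either table, and 15 of 943 genes measured in both tables showed such a reversal (1.59%). The second-table means of Hnrnpa1 and Sf3b2 each average 2 probes, of which 1 did not keep its sign over the pairs. The second-table probe of Sf3b3 had -0.565 in pair 3 in records without the letter B and 0.006 in records with it.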

How the results depend on the processing

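The count of members past the threshold was 0 in both tables in the main setting and under every alternative except 3, all in the first table: 2 with slides left unturned, 2 from channel 1 alone and 11 from channel 2 alone (the channel of the treated RNA). The median member effect, 0.0271 and -0.00217 in the first and second table, was -0.0967 and -0.055 in values as deposited, -0.281 and -0.284 without the turn, -0.215 and -0.274 from channel 1 alone, and 0.35 and 0.274 from channel 2 alone. In the values as deposited the median over all probes was itself -0.128 and -0.0543. Relative to it the member medians were 0.0318 and -0.000695, and each family median had the sign of the main setting. Leaving out 1 pair gave 0.00953 to 0.0309 and -0.00813 to 0.00546, with 0 calls. The paired fit of single slides with the replicate block gave 0 calls and medians of 0.0271 and -0.00217, and so did the fit with no replicate block. Of 16 family medians, 10 changed sign in values as deposited, 11 without the turn, 10 and 5 from channel 1 and 2 alone, 4, 3 and 4 without pair 1, 2 and 3, 5 and 1 in records with and without the letter B, 2 with runs of 240 probes centred, 1 under scaling and 0 under the remaining alternatives, quantile normalization and the dye trend among them. Of the 17 values of named genes in each table, 11 in the first and 2 in the second changed sign in values as deposited. Without the turn 14 and 8 did, from channel 1 alone 13 and 6, and from channel 2 alone 2 and 9. No other alternative changed more than 1 in a table, and scaling changed 1 in the second.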
